A study of Oryza sativa Japonica Group with 29 samples.

Results

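The response of OsNMCP1 over-expressing rice roots to 3 h without water was measured by RNA sequencing in 5 libraries, 2 of watered (OE normal) and 3 of droughted (OE drought) plants, of 29 samples in the series. Members were the libraries that carry both labels, and 22962 of the 55986 loci in the deposited tables were tested, those with at least 1 TPM (transcript abundance as a share of the library) in at least 2 of the 5 libraries. The plants were 25-day-old seedlings of the Japonica cultivar ZH11 in hydroponic culture, at 28 °C by day and 22 °C by night, and both groups carry the over-expression. Wild-type ZH11 (WT) roots under the same conditions, 3 libraries watered and 3 after 3 h of drought, served only to ask whether the OE response differed from that of WT. Neither the promoter nor the line is given in the sources used here, nor whether OE is 1 clone. The replicates are called biological, but separate cultures are not mentioned, so a p-value here measures only the spread between these libraries. For the drought libraries the molecule is given as genomic DNA, although their titles and the extraction protocol name RNA, and they were used as RNA. In OE and WT alike, the drought libraries also stand in a separate block of sample numbers from the normal libraries. Any other difference between these blocks coincides with water status and cannot be told apart from drought here.

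NMCP proteins are long coiled-coil proteins at the plant nuclear periphery that take the place of animal lamins. Drought raises abscisic acid (ABA) in plants. ABA binds PYL receptors, which then hold clade A protein phosphatases 2C in check, and this frees SnRK2 kinases to act on bZIP factors that switch on genes for dehydrins and other late embryogenesis abundant (LEA) proteins. DREB factors act on drought and cold genes largely outside the ABA route. Roots also take up silicon, nitrogen and potassium, build cellulose walls and hold the dividing cells of the tip, so genes for these functions were listed beside the stress genes. No guide, probe or other sequence is part of these data, and none is shown.

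The over-expressed gene was checked first. NMCP1 (LOC_Os01g56140, chromosome 1, 32327698 to 32332777 as the deposited tables give it) measured 184 and 167 TPM before and 452, 424 and 347 TPM after drought in OE roots. The WT normal libraries held 35.5, 37.6 and 36.3 TPM and the WT drought libraries 37.4, 28.1 and 46.4 TPM, so every OE library lay above every WT library. After drought NMCP1 rose further in OE roots, by 1.2 (SE 0.17, adjusted p = 0.0016) on the log2(TPM + 1) scale that all differences here use, with limma's moderated test and Benjamini-Hochberg adjustment over all 22962 loci. In WT the difference was 0.00, and the OE response exceeded it by 1.2 (SE 0.26, adjusted p = 0.014), a call lost without either OE normal library. The related NMCP1A went from 66.8 and 57.5 to 40.6, 41.3 and 33.4 TPM, a difference of -0.68 (SE 0.15, adjusted p = 0.0096). SWI3C1, a subunit of the SWI/SNF chromatin remodelling complex, went from 32.8 and 30.6 to 23.3, 22.3 and 24.9 TPM, a difference of -0.42 (SE 0.13, adjusted p = 0.03). Both calls were lost when TPM was rescaled by the median ratio over loci, where NMCP1A stood at -0.05 and SWI3C1 at 0.20.

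Most of the transcriptome of OE roots differed between the drought and normal libraries. Of the loci tested, 15913 (69.3%) were called at an adjusted p under 0.05, 4556 higher (19.8%) and 11357 lower (49.5%). Changes of at least 2-fold numbered 3205 higher (14%) and 7670 lower (33.4%), and of at least 8-fold 650 higher and 463 lower. The 3 drought libraries did not overlap the 2 normal libraries at 83.4% of loci, being higher at 24.7% and lower at 58.7%. Because TPM is a share of each library, the balance of directions depends on the scaling: the median locus stood at -0.58 after drought, and with median-ratio scaling 13499 loci were called (58.8%), 7055 higher (30.7%) and 6444 lower (28.1%). No locus was called in opposite directions by both scalings. Counts of gene groups below are therefore given on TPM as deposited and with median-ratio scaling, and their medians, on TPM, are read against -0.58. The counts are read against the shares over all loci, 19.8% higher and 49.5% lower on TPM, and 30.7% and 28.1% with median-ratio scaling. The filter itself let in 1188 loci that were under 1 TPM in both OE normal libraries and 1613 that were under 1 TPM in all OE drought libraries, and such loci had to differ.

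Fewer loci gained TPM after drought than lost it, and as a share of those loci gain and loss were about equally concentrated. Summed over loci, 7504 gained TPM, and 269 of them held 50% of the gain. Of 15458 that lost TPM, 609 held 50% of the loss. Among loci in the highest of 5 equal bins by mean TPM (46.1 TPM or more) 37.4% were higher and 35.4% lower, with a median difference of 0.01. In the lower 4 bins 11.3% to 21.6% were higher, with medians from -0.89 to -0.36.

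The replicates differed in how far they moved. The OE normal libraries correlated at 0.995 across loci, and the OE drought libraries at 0.960 to 0.975. The median SD within a group was 0.07 for OE normal and 0.26 for OE drought. OE drought replicate 3 lay nearest to the watered libraries, with a median absolute difference of 0.83 against 1.05 and 1.04 in the other drought libraries, and it was the least displaced at 58.2% of called loci. Implied depth was 5.79 to 7.34 gigabases in the 5 libraries. With no read counts used here, no counting interval is given. Photosynthesis genes, used as markers of shoot tissue, were present before drought: CAB1R and CAB2R (light-harvesting proteins), RBCS (the small subunit of Rubisco) and PORA (a chlorophyll synthesis enzyme) summed to 340 to 343 TPM in OE normal and 45.7 to 190 TPM in OE drought libraries. These are the 4 of 8 shoot markers written that got an accepted name, and all 4 were lower, 2 of them with median-ratio scaling. Of the root markers, LSI1, LSI2, SHR1, SCR1 and QHB summed to 1728 to 1890 TPM in OE normal and 94.4 to 255 TPM in OE drought libraries. These were 5 of 6 written, and all 5 were lower, 4 of them with median-ratio scaling, so the genes that mark roots fell in the same libraries. LSI1 and LSI2, which return below as silicon transporters, held nearly all of the root marker sum. In these bulk samples fewer cells of a type and less RNA per cell cannot be told apart, and the part of either marker set in the results below was not tested.

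**Figure D1:**
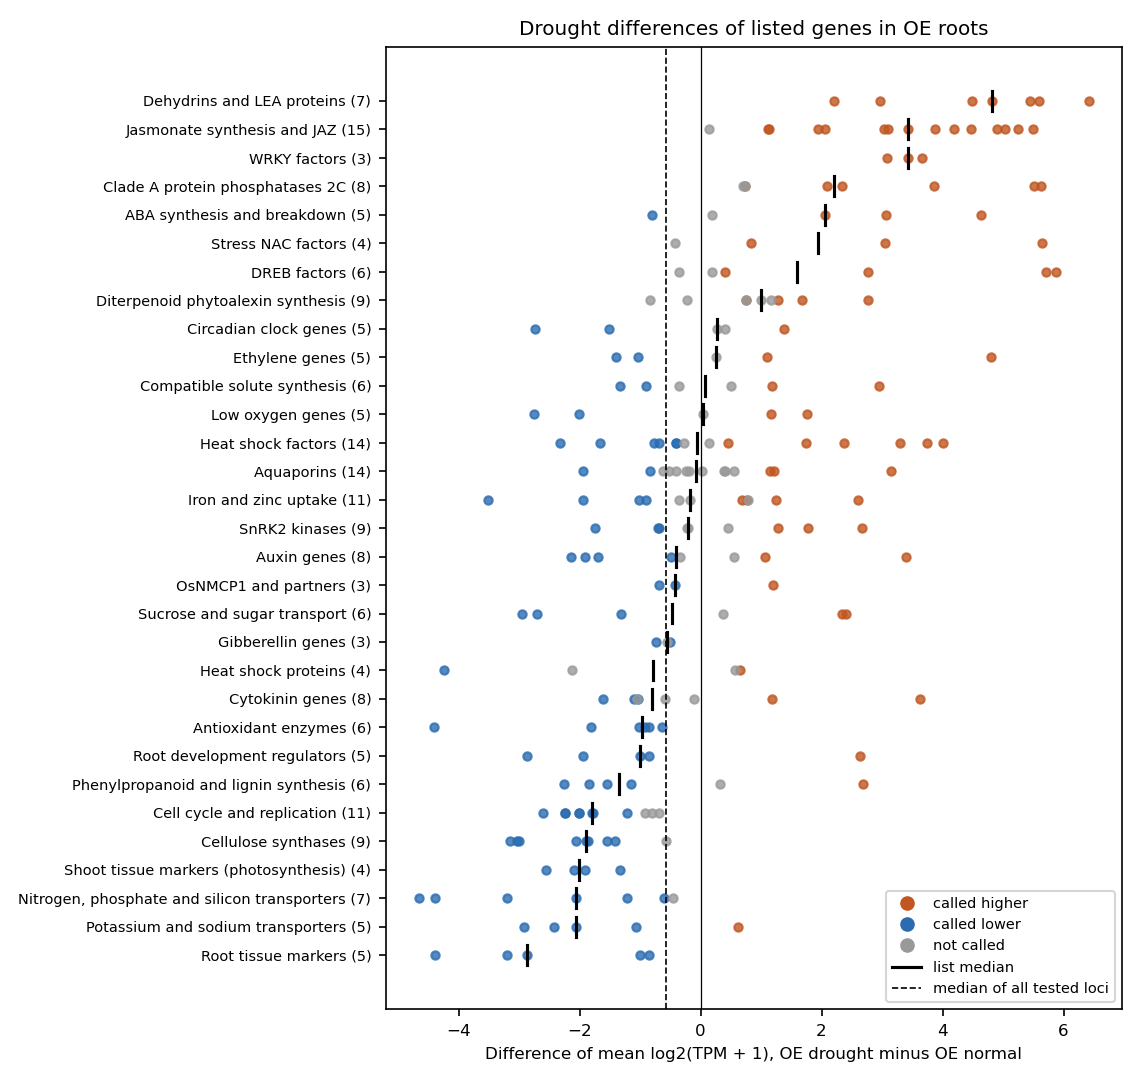
Differences of mean log2(TPM + 1), OE drought minus OE normal, for every tested member of the 31 lists with at least 3 tested members (number in brackets). Each point is a gene, coloured by its call on TPM as deposited, the short black lines are list medians, and the dashed line is the median of all tested loci (-0.58). The medians of the LEA, jasmonate, WRKY and phosphatase lists lie farthest right, and those of root markers, ion transporters, shoot markers and cellulose synthases farthest left.

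NCED3, a gene of ABA synthesis, most clade A phosphatases and the LEA genes rose in OE roots, whereas the SnRK2 kinases were split. Of 5 tested genes of ABA synthesis and breakdown, 3 rose and 1 fell (4 and none with median-ratio scaling), with a median of 2.06. Clade A phosphatases 2C, the brakes of ABA signalling, rose at 6 of 8 tested members with none lower (8 of 8 with median-ratio scaling), with a median of 2.21. All 7 tested dehydrin and LEA genes rose under both scalings, with a median of 4.82. The shares over all loci were 19.8% higher and 49.5% lower. Some members passed the filter only through the drought libraries and so had to differ (1, 2 and 3 in these lists).

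NCED3, the 9-cis-epoxycarotenoid dioxygenase of the committed step of ABA synthesis, went from 1.8 and 2.17 TPM in watered to 88.5, 75.4 and 57.7 TPM in droughted OE roots. The groups were far apart, and the difference was 4.63 (SE 0.21, adjusted p = 7.0e-05). The ABA 8′-hydroxylases, which break ABA down, went different ways. ABA8OX2 rose from 3.23 and 3.68 to 12.9, 24.1 and 17.2 TPM, by 2.06 (SE 0.28, adjusted p = 0.0015). ABA8OX3 rose from 0.0341 and 0.129 to 9.96, 12.8 and 3.89 TPM, by 3.06 (SE 0.45, adjusted p = 0.002), with the lowest drought value in replicate 3. ABA8OX1, the most abundant of them in watered roots, fell from 36.8 and 43.5 to 24.1, 19.2 and 24.6 TPM, a difference of -0.80 (SE 0.17, adjusted p = 0.0074), a call that was lost with median-ratio scaling (-0.18) and without OE normal replicate 2. ZEP1, zeaxanthin epoxidase, was not called (19 and 17.8 against 23.5, 20.3 and 19.8 TPM).

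Among the phosphatases PP2C30 went from 2.96 and 3.89 to 223, 252 and 184 TPM, a rise of 5.64 (SE 0.19, adjusted p = 3.5e-05). PP2C49 went from 0.830 and 0.612 to 90.8, 86 and 60.1 TPM, a rise of 5.52 (SE 0.22, adjusted p = 4.9e-05). PP2C68 started higher, at 22.5 and 21.8 TPM, and reached 397, 354 and 271 TPM, a rise of 3.87 (SE 0.19, adjusted p = 7.8e-05). All 3 were lowest in replicate 3 of the drought libraries and still far above the watered ones. PP2C06, PP2C09 and PP2C53 also rose, by 2.09, 2.34 and 0.73, the last a call lost without OE normal replicate 1, while PP2C08 (16.4 and 15.5 against 38.5, 23.3 and 20.7 TPM) and PP2C51, at no more than 1.84 TPM in any library, were called only with median-ratio scaling.

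The kinases that these phosphatases hold back were split. Of 9 tested SnRK2 genes (SAPK1 to SAPK10), 3 rose and 3 fell, with a median of -0.21 (4 higher and 1 lower with median-ratio scaling). SAPK1 rose from 25.3 and 23.4 to 138, 202 and 144 TPM, by 2.66 (SE 0.20, adjusted p = 0.00023), and SAPK6 and SAPK2 by 1.78 and 1.27. SAPK3, the most abundant of them in watered roots, fell from 144 and 139 to 44.3, 37.7 and 43.6 TPM, a difference of -1.74 (SE 0.13, adjusted p = 0.00024). SAPK8 went from 113 and 108 to 66.3, 67.7 and 69.2 TPM and was called lower on TPM (-0.70) but not with median-ratio scaling (-0.06). Downstream of them BZIP23, a bZIP activator of ABA genes, rose from 61.2 and 61.8 to 271, 215 and 233 TPM, by 1.94 (SE 0.14, adjusted p = 0.00024). TRAB1, another such factor, stood at 31.6 and 28.3 TPM before and 34.5, 33.8 and 33 TPM after drought and was called only with median-ratio scaling. PYL11, the only ABA receptor with an accepted name, was not called (71.3 and 67.2 against 70.3, 63.5 and 43.8 TPM).

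LEA genes are the targets at the end of the pathway. LIP9, a dehydrin, was already at 216 and 227 TPM in watered roots and stood at 5421, 6009 and 3818 TPM after drought, a rise of 4.49 (SE 0.25, adjusted p = 0.00011). LEA3, a group 3 LEA protein, went from 4.53 and 3.48 to 180.4, 328 and 170.5 TPM, a rise of 5.45 (SE 0.31, adjusted p = 0.00012). EMP1, an Em-type LEA protein typical of seeds, went from 0.162 and 0 to 7.37, 6.86 and 8.05 TPM, a rise of 2.96 (SE 0.18, adjusted p = 0.00013). The drought libraries agreed more closely for EMP1 than for LIP9 or LEA3. The RAB16 dehydrins lie side by side on chromosome 11 and are near-identical copies, so reads may be split unevenly among them. Of this cluster RAB16C went from 1.07 and 0.418 to 169, 155 and 117 TPM, a rise of 6.41 (SE 0.24, adjusted p = 4.4e-05). RAB21 went from 0.0543 and 0.138 to 80, 84.1 and 20.3 TPM, a rise of 5.59 (SE 0.62, adjusted p = 0.00081), with replicate 3 well below the other drought libraries. RAB16B rose to 25.6, 40.1 and 28.8 TPM, by 4.82, and RAB16D by 2.2, a call lost without either OE normal library, so that 6 of the 7 LEA genes were then higher.

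**Figure D2:**
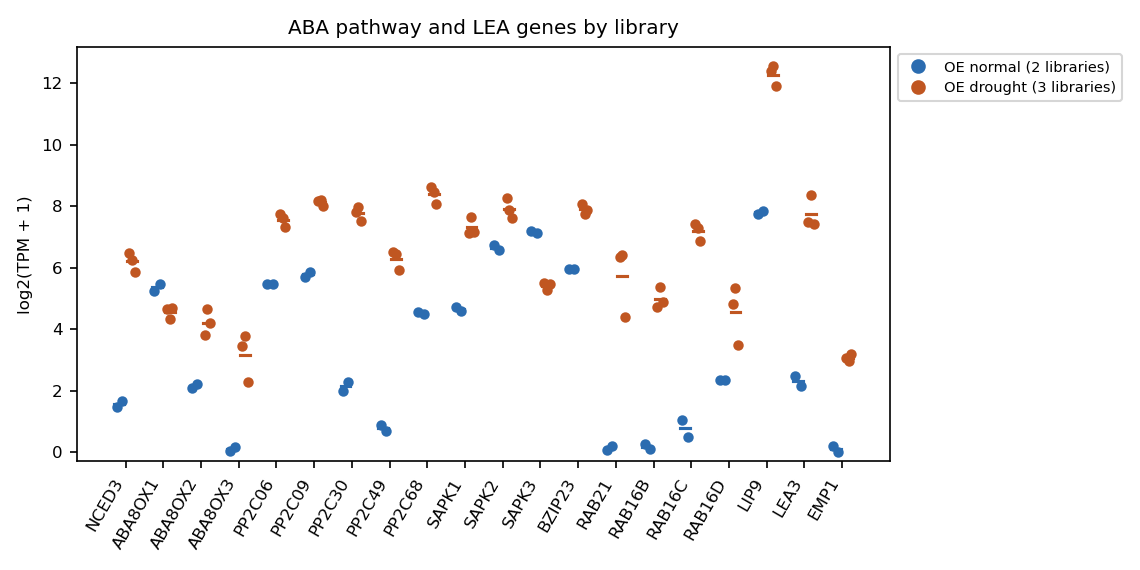
Values of ABA pathway and LEA genes as log2(TPM + 1) in each of the 2 OE normal (blue) and 3 OE drought (orange) libraries, with group means as short lines. Drought and normal libraries did not overlap for any gene plotted, and ABA8OX1 and SAPK3 are the genes plotted that were lower after drought.

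Transcription factors of the stress response were among the largest rises. HOX24, an HD-Zip I factor, had the largest rise of any locus with an accepted name, from 0.345 and 0.249 to 290.0, 210.3 and 110.5 TPM, or 7.2 (SE 0.40, adjusted p = 0.0001), and it passed the filter only through the drought libraries. HOX22, its close relative, went from 3.69 and 4.31 to 217, 197 and 105 TPM, a rise of 5.06 (SE 0.33, adjusted p = 0.00016). Both were higher under both scalings, and for both replicate 3 held the lowest drought value. Of 4 tested stress NAC factors 3 rose under both scalings and none fell, with a median of 1.94. NAC4 went from 4.99 and 4.52 to 346, 339.6 and 201 TPM, a rise of 5.65 (SE 0.26, adjusted p = 7.0e-05), and NAC45 rose by 3.04. NAC5, an abundant drought and salt factor, went from 202 and 199 to 399.7, 343 and 336 TPM, a rise of 0.84 (SE 0.14, adjusted p = 0.0033). NAC3 was not called (87.2 and 87.8 against 78.9, 49.1 and 71.3 TPM).

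Of 6 tested DREB factors 4 rose and none fell (5 with median-ratio scaling), with a median of 1.59. DREB1C went from 3.62 and 3.73 to 347, 229 and 256 TPM, a rise of 5.87 (SE 0.20, adjusted p = 3.7e-05), and DREB1F from 0.141 and 0.0885 to 58.6, 86.5 and 37.7 TPM, a rise of 5.72 (SE 0.35, adjusted p = 0.00014), where DREB1F passed the filter only through the drought libraries. DREB1G rose by 2.77 and DREB2B by 0.41. The call of DREB2B was lost without either OE normal library, without OE drought replicate 1 and without OE drought replicate 2. Leaving out OE drought replicate 1 gave 3 of the 6 DREB factors higher and 1 lower. DREB1A and DREB1B, the cold-induced members, were not called on TPM, with 24.3 and 25 against 28.1, 33.2 and 24.4 TPM for DREB1A and 30.2 and 29.5 against 27.3, 23 and 19.6 TPM for DREB1B. The 3 tested WRKY factors rose under both scalings, with a median of 3.43. WRKY24 went from 8.04 and 9.78 to 228, 106 and 77.5 TPM and WRKY62 from 6.09 and 5.8 to 62.3, 31.5 and 98.5 TPM, with wide spread among the drought libraries.

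Jasmonate genes rose as well. Jasmonate is made from linolenic acid by allene oxide synthase (AOS) and 12-oxophytodienoate reductase (OPR), and its signalling is held back by JAZ repressors, named TIFY in rice. Of 15 tested genes 14 rose and none fell, with a median of 3.43, and with median-ratio scaling all 15 rose. OPR7, the reductase of jasmonate synthesis, rose by 1.14. OPR1, another member of its family, went from 57.8 and 64.9 to 1681, 1953 and 1948 TPM, a rise of 4.9 (SE 0.16, adjusted p = 3.4e-05). AOS2 went from 1.01 and 1.44 to 104, 71.4 and 48.4 TPM, a rise of 5.03 (SE 0.33, adjusted p = 0.00016), and AOS1, more abundant before drought, from 32 and 33.6 to 335, 274 and 262 TPM. JAR1, which joins jasmonate to isoleucine, rose by 1.94. Among repressors TIFY9 went from 1.71 and 1.45 to 151, 120.5 and 85.1 TPM, a rise of 5.5 (SE 0.26, adjusted p = 7.0e-05), and TIFY11E from 5.87 and 4.83 to 272, 228 and 218 TPM, a rise of 5.24 (SE 0.16, adjusted p = 3.3e-05). The most abundant repressors after drought were TIFY11B (1257, 959 and 911 TPM) and TIFY10A (934, 720.0 and 896 TPM), while TIFY6A was called only with median-ratio scaling (41 and 39.7 against 41.4, 50.7 and 42.8 TPM). The TIFY11 genes include near-identical neighbours whose values are uncertain between copies. Diterpenoid phytoalexins are antimicrobial products that jasmonate induces in rice. Of 9 tested genes of their synthesis 4 rose and none fell (5 and none with median-ratio scaling), with a median of 1.00, and 4 of the 9 passed the filter only through drought libraries. Without either OE normal library only CPS4 and KSL4 were called higher. Without OE drought replicate 1 there were 3 higher and 1 lower, and without replicate 3 there were 7 higher. CPS4, the cyclase that starts momilactone synthesis, went from 1.52 and 1.48 to 22.3, 13.4 and 13.8 TPM, a rise of 2.77 (SE 0.26, adjusted p = 0.00048). KSL4, which acts next to it in the same gene cluster, went from 0.397 and 0.329 to 3.3, 3.09 and 3.78 TPM, a rise of 1.68 (SE 0.16, adjusted p = 0.00049), whereas CYP99A3 of that cluster stood at 3.84 and 4.08 TPM before and 4.04, 2.65 and 3.16 TPM after drought and was not called.

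Most of the listed nitrogen, silicon, phosphate, potassium and sodium transporters were lower after drought, against 49.5% of all loci (28.1% with median-ratio scaling). Of 7 tested nitrogen, phosphate and silicon transporters 6 were lower and none higher, with a median of -2.05 (4 lower with median-ratio scaling, and 3 without OE normal replicate 1), and NRT2.3 passed the filter only through the normal libraries. Of 5 potassium and sodium transporters 4 were lower and 1 higher, with a median of -2.07 (3 lower and 1 higher with median-ratio scaling). LSI1, the silicon influx channel, went from 1008 and 1092 to 179.5, 76.3 and 105 TPM, a difference of -3.21 (SE 0.35, adjusted p = 0.00077). LSI2, its efflux partner, went from 702 and 778 to 71.9, 15.5 and 36 TPM, a difference of -4.38 (SE 0.58, adjusted p = 0.0014). AMT1-3, an ammonium transporter, went from 156 and 163 to 9.36, 2.72 and 5.82 TPM, a difference of -4.65 (SE 0.42, adjusted p = 0.00041), the largest fall among loci with an accepted name. In all 3, replicate 2 held the lowest value, not replicate 3. NAR2.1, a partner protein of nitrate transporters, fell from 74 and 63.2 to 23.9, 8.37 and 19 TPM, a difference of -2.05 (SE 0.42, adjusted p = 0.0064), a call lost without OE normal replicate 1 (adjusted p = 0.057). HAK1, a high-affinity potassium transporter, fell from 157 and 166 to 39.4, 32.7 and 41.6 TPM, a difference of -2.07 (SE 0.15, adjusted p = 0.00021). HKT1 and HKT8, sodium transporters of low level, fell by 2.92 and 2.43, to below 1 TPM in every drought library, and both passed the filter only through the normal libraries. PT1, a phosphate transporter, was not called (147 and 159 against 159.9, 105 and 80.3 TPM), and HAK5 was called higher, by 0.63 from 1.33 and 1.68 TPM, a call lost in 4 of the 5 fits that left out a library.

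Iron and zinc genes were split, with 4 of 11 tested higher and 4 lower and a median of -0.17 (5 higher and 2 lower with median-ratio scaling). NAS3, a nicotianamine synthase, fell from 115 and 118 to 12, 7.19 and 9.48 TPM, a difference of -3.51 (SE 0.21, adjusted p = 0.00014). NRAMP5, the manganese and cadmium uptake transporter, fell from 33.4 and 28.2 to 9.82, 5.65 and 6.87 TPM, a difference of -1.94 (SE 0.25, adjusted p = 0.0012). NAAT1, of deoxymugineic acid synthesis, rose from 0.0385 and 0.301 to 8.0, 6.96 and 3.93 TPM, by 2.6 (SE 0.30, adjusted p = 0.0009). NAAT1 and YSL2, both called higher, passed the filter only through the drought libraries. IRT1, the iron uptake transporter, was called higher on little transcript, from 1.69 and 0.826 to 2.46, 2.75 and 2.52 TPM, by 0.69 (SE 0.21, adjusted p = 0.029), a call lost without OE normal replicate 2, OE drought replicate 1 or OE drought replicate 2. The number higher was 2 without OE normal replicate 1 or OE drought replicate 1, and 1 without OE normal replicate 2. Aquaporins, the water channels, mostly did not pass: 3 of 14 tested were higher, 2 lower and 9 not called, with a median of -0.08 (6 higher and 1 lower with median-ratio scaling, and 2 higher and 1 lower without either OE normal library). TIP1-2, a vacuolar channel, rose from 33.7 and 32.8 to 324, 291 and 289.9 TPM, by 3.14 (SE 0.12, adjusted p = 4.5e-05). PIP2-6, at the plasma membrane, fell from 280.2 and 319.5 to 57, 93.4 and 86.9 TPM, a difference of -1.94 (SE 0.24, adjusted p = 0.0011). The most abundant channels, TIP1-1 (2255 and 2464 against 1740.2, 2401 and 1924 TPM) and PIP1-2 (1374 and 1545 against 1091, 1595 and 1198 TPM), overlapped between groups and were not called.

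Wall and division genes fell. Of 9 cellulose synthases 8 were lower and none higher under both scalings, with a median of -1.89. The secondary wall set CESA4, CESA7 and CESA9 fell most. CESA4 went from 207 and 212 to 16.6, 37.1 and 26 TPM, a difference of -3.0 (SE 0.32, adjusted p = 0.00068). CESA7 went from 192 and 213 to 16, 33.6 and 24.7 TPM, a difference of -3.04 (SE 0.30, adjusted p = 0.00054). CESA9 went from 167 and 185 to 13, 27.5 and 18.5 TPM, a difference of -3.16 (SE 0.30, adjusted p = 0.00048). In each the lowest value was in replicate 1 and the highest in replicate 2. The primary wall genes CESA1, CESA3 and CESA8 fell by 1.55, 2.06 and 1.89, the first a call lost without OE normal replicate 1, and in these replicate 3 held the highest drought value. Of 6 phenylpropanoid and lignin genes 4 were lower and 1 higher, with a median of -1.35 (3 lower and 2 higher with median-ratio scaling). ROMT9, an O-methyltransferase, fell from 1564 and 1789 to 379, 336 and 340.0 TPM, a difference of -2.25 (SE 0.16, adjusted p = 0.00021). ZB8, a phenylalanine ammonia-lyase, rose from 77.5 and 87.7 to 701, 461 and 468 TPM, by 2.68 (SE 0.22, adjusted p = 0.00032), while the far more abundant lyase PAL fell from 3532 and 3883 to 1442, 1249.9 and 1141 TPM, a difference of -1.54 (SE 0.21, adjusted p = 0.0017).

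Of 6 genes of sucrose cleavage and sugar transport 2 rose and 3 fell, with a median of -0.47 (3 higher and 3 lower with median-ratio scaling). SUS1, a sucrose synthase, fell from 2422 and 2167 to 262, 231 and 426 TPM, a difference of -2.95 (SE 0.29, adjusted p = 0.00054). SWEET14, a sucrose exporter, fell from 52.5 and 55.1 to 8.26, 4.6 and 10.6 TPM, a difference of -2.7 (SE 0.32, adjusted p = 0.00093). SWEET4 and SUT1, a sugar exporter and a sucrose uptake carrier, rose by 2.4 and 2.33.

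Cell cycle and replication genes were lower at 8 of 11 tested members, against 49.5% of all loci, and higher at none. Their median was -1.80, and 5 were lower with median-ratio scaling, against 28.1% of all loci. Only 2 of the 11 were lower without OE normal replicate 1, and likewise without OE normal replicate 2. PCNA, the sliding clamp of DNA replication, went from 93.2 and 90.4 to 10.6, 9.77 and 27.3 TPM, a difference of -2.61 (SE 0.43, adjusted p = 0.003). MCM5, a subunit of the replicative helicase, went from 17 and 15.6 to 2.35, 1.69 and 4.5 TPM, a difference of -2.23 (SE 0.33, adjusted p = 0.002). Replicate 3 held the highest drought value for all 11 genes. For the mitotic cyclins it lay within or above the watered range, with CYCB1-1 at 26.9 and 26.6 against 13.1, 9.6 and 32.7 TPM and CYCB2-1 at 18.8 and 21 against 6.43, 7.23 and 20.7 TPM, and none of the 3 cyclins tested was called. Of 5 root development regulators 4 were lower and 1 higher, with a median of -1.01 (3 and 1 with median-ratio scaling), and 2 of them passed the filter only through the normal libraries. SHR1, which patterns the endodermis together with SCR1, fell from 12.5 and 13.6 to 1.06, 0.574 and 1.17 TPM, a difference of -2.88 (SE 0.21, adjusted p = 0.00022). WOX11, a promoter of crown root growth, rose from 2.49 and 2.43 to 24.1, 23.8 and 14.7 TPM, by 2.63 (SE 0.26, adjusted p = 0.00052).

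**Figure D3:**
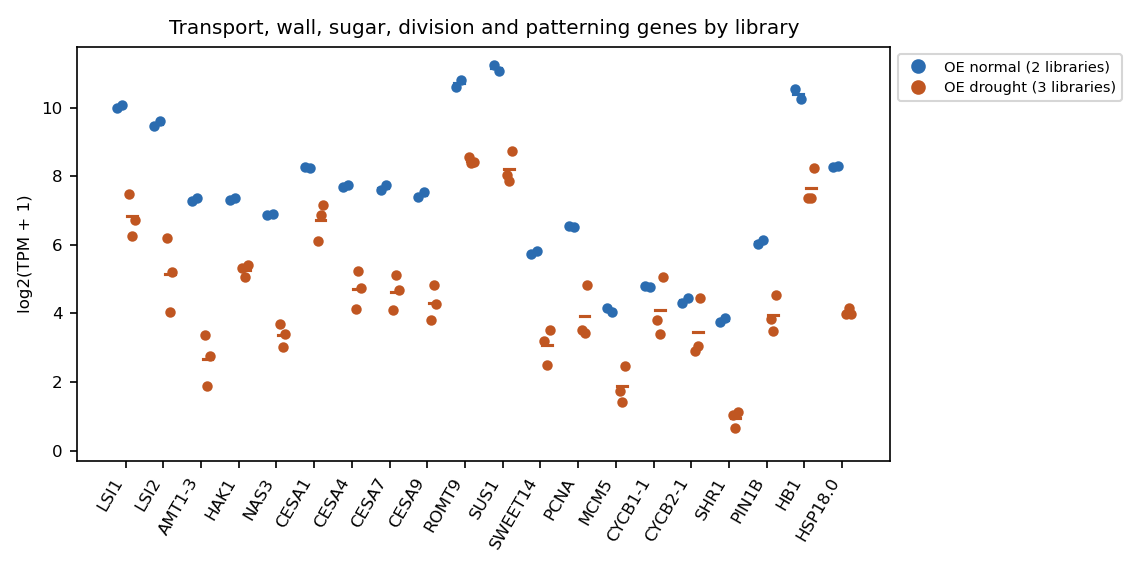
Values of transport, wall, sugar, division and patterning genes, with HB1 and HSP18.0, as log2(TPM + 1) in each of the 2 OE normal (blue) and 3 OE drought (orange) libraries, with group means as short lines. The groups overlap only for CYCB1-1 and CYCB2-1, where drought replicate 3 reaches the watered values.

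Antioxidant enzymes were lower on TPM as deposited, where 49.5% of all loci were lower, against 28.1% of all loci with median-ratio scaling. All 6 tested antioxidant enzymes were lower, with a median of -0.97, but only 2 of them with median-ratio scaling, 3 without either OE normal library and 4 without OE drought replicate 2. CATA, a catalase, fell from 868 and 1153 to 46.2, 79.2 and 27 TPM, a difference of -4.4 (SE 0.43, adjusted p = 0.00055). APX2, a cytosolic ascorbate peroxidase, fell from 703 and 763 to 179, 173 and 295 TPM, a difference of -1.8 (SE 0.26, adjusted p = 0.0019). Heat shock factors were split, with 6 of 14 higher and 6 lower (6 and 2 with median-ratio scaling) and a median of -0.07. The 6 of 14 lower are a smaller share than the 49.5% lower over all loci, and numbered 1 without OE normal replicate 1, 2 without OE normal replicate 2 and 3 without OE drought replicate 2. HSFA3 rose from 9.06 and 10.8 to 125, 171 and 142 TPM, by 3.74 (SE 0.18, adjusted p = 7.2e-05), and HSFC2B by 4.02, while HSFA2C fell by 1.67, from 20.9 and 23.2 to 7.07, 5.4 and 6.34 TPM. Of 4 tested heat shock proteins 1 was higher and 1 lower under both scalings, and 2 passed the filter only through the drought libraries. HSP18.0, a small heat shock protein, fell from 307 and 313 to 14.9, 16.8 and 14.9 TPM, a difference of -4.24 (SE 0.12, adjusted p = 3.3e-05), with the 3 drought libraries close together. HSP16.9A was called higher, by 0.65, a call lost in some fits that left out a library. The low oxygen genes moved both ways. ADH1, alcohol dehydrogenase, rose from 69.2 and 70.8 to 199, 303 and 229.9 TPM, by 1.77 (SE 0.20, adjusted p = 0.00083). HB1, a non-symbiotic haemoglobin, fell from 1509 and 1219 to 164, 165 and 302 TPM, a difference of -2.74 (SE 0.31, adjusted p = 0.00084), and HB2 fell by 2.0. ADH2 rose by 1.17 and PDC2 was not called, so 2 of 5 were higher and 2 lower under both scalings, and 1 higher without either OE normal library, where the call of ADH2 was lost. Of the 165 listed genes called, 56 lost the call in at least 1 fit that left out a library, and all 56 lost it without an OE normal library. NMCP1A, SWI3C1, YSL2, RBCS, CAB1R and CAB2R were among them, and the shoot markers lower numbered 2 without OE normal replicate 1 and 1 without OE normal replicate 2.

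The largest changes of loci without an accepted name were larger than those of named genes. LOC_Os05g37060 (chromosome 5, 21654182 to 21655380) went from 0.0708 and 0 to 466, 491 and 446 TPM. LOC_Os07g34570 (chromosome 7, 20724563 to 20726098) went from 1156 and 1323 to 4.17, 4.28 and 2.76 TPM. The other two behaved otherwise in WT. LOC_Os05g03865 (chromosome 5, 1718263 to 1718709) stood at 0.240 and 0.294 TPM in OE normal and 3429, 2717 and 2622 TPM in OE drought, but at 0.182, 534 and 570.1 TPM in WT normal and 0.174, 1455 and 1774 TPM in WT drought libraries, so it was near 0 in 1 library of each WT group. LOC_Os03g18779 (chromosome 3, 10518910 to 10520197) stood at 171 and 169 TPM in OE normal and below 0.4 TPM in every OE drought library, and no WT library held more than 0.482 TPM. For LOC_Os05g03865 and LOC_Os03g18779, whether values near 0 are failed estimates cannot be told from the TPM tables, so neither change is read as more than the listed values.

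The OE response was then set beside that of WT in 1 fit over 11 libraries. Differences in OE and WT, which share no library, correlated at 0.811 across the 22962 loci, as a description, since loci are not independent replicates. In WT 14766 loci were called (64.3%), 4634 higher (20.2%) and 10132 lower (44.1%). Of the loci higher in OE, 69.3% were higher in WT and 1.8% lower, and of the loci lower in OE, 75.5% were lower in WT. The median absolute difference was 0.97 in OE and 0.72 in WT. The responses differed, by the interaction term, at 3740 loci (16.3%), with the OE response more positive at 1072 (4.67%) and more negative at 2668 (11.6%). With median-ratio scaling they differed at 2687, 1445 more positive and 1242 more negative, so the balance of directions again depended on scaling.

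Some ABA and LEA genes were among the more positive responses of OE. Of the 5 tested genes of ABA synthesis and breakdown 2 responded more positively and none more negatively, under both scalings. ABA8OX1 leaned the other way, rising in WT from 30.4, 32.9 and 31.7 to 302, 142 and 31 TPM and falling in OE. Its interaction of -2.58 (SE 0.93, adjusted p = 0.085) was not called. Of the 8 tested phosphatases 5, and of the 7 LEA genes 3, rose more in OE than in WT and none less, under both scalings. Over all tested loci 4.67% responded more positively on TPM, and 1445 of 22962 with median-ratio scaling. RAB16C reached 1.87, 20 and 2.99 TPM in WT drought libraries, below every OE drought library, an interaction of 4.18 (SE 0.89, adjusted p = 0.013), a call lost without either OE normal library. HOX24 reached 11.8, 7.45 and 16 TPM in WT drought libraries, an interaction of 3.74 (SE 0.51, adjusted p = 0.0019). EMP1 stood at 0.315, 0.0622 and 0.407 TPM in WT normal and 0.146, 0.244 and 0.450 TPM in WT drought libraries, an interaction of 2.94 (SE 0.22, adjusted p = 7.2e-05). NAC5 moved in opposite directions: in WT it fell from 293, 309 and 299 to 43.8, 34.4 and 54.3 TPM, an interaction of 3.6 (SE 0.23, adjusted p = 3.0e-05). Of the 11 tested iron and zinc genes 5 responded more positively in OE and 2 more negatively (5 and 1 with median-ratio scaling). YSL2, a metal-nicotianamine transporter, fell from 15.6, 10.5 and 14.4 to 2.91, 1.28 and 1.61 TPM in WT. In OE it rose from 0.751 and 0.629 to 3.98, 4.5 and 1.36 TPM. HSFC2A rose from 4.55 and 5.9 to 59.3, 79.5 and 45.2 TPM in OE, with 8.55, 8.68 and 8.02 TPM before and 3.2, 4.75 and 18.8 TPM after drought in WT. The filter used the OE libraries only, and PP2C49, RAB16B, HOX24, EMP1 and YSL2 passed it only through the OE drought libraries. For these genes the filter itself favoured a more positive OE response.

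Transport and wall genes were among the more negative responses of OE. Of the 7 nitrogen, phosphate and silicon transporters 5 responded more negatively (2 with median-ratio scaling), as did 5 of the 9 cellulose synthases (3) and 4 of the 9 phytoalexin genes (3). None of these lists had a member that responded more positively. Of the 15 jasmonate genes 3 responded more negatively on TPM and none with median-ratio scaling. Over all tested loci 11.6% responded more negatively on TPM, and 1242 of 22962 with median-ratio scaling. DREB1A rose in WT from 8.09, 12.6 and 7.51 to 259, 156 and 108 TPM and was not called in OE, an interaction of -3.82 (SE 0.44, adjusted p = 0.0008). CYP99A3 rose in WT from 3.79, 3.26 and 3.76 to 51.5, 23.7 and 22.9 TPM, an interaction of -3.0 (SE 0.41, adjusted p = 0.0021). In watered roots both genes were already as high in OE as in WT or higher. CESA5 fell in OE from 109 and 106 to 25.1, 31.6 and 31 TPM, with 90.2, 90.3 and 90.4 TPM before and 120.2, 124 and 62 TPM after drought in WT, an interaction of -1.96 (SE 0.35, adjusted p = 0.0063). SWEET14 stayed between 24.3 and 31.7 TPM in all WT libraries, an interaction of -2.57 (SE 0.35, adjusted p = 0.0019). PIP1-3, a plasma membrane aquaporin, rose in WT from 248, 252 and 261 to 1484, 1420.1 and 946 TPM, with 188 and 190.3 TPM before and 323, 182 and 265 TPM after drought in OE.

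**Figure D4:**
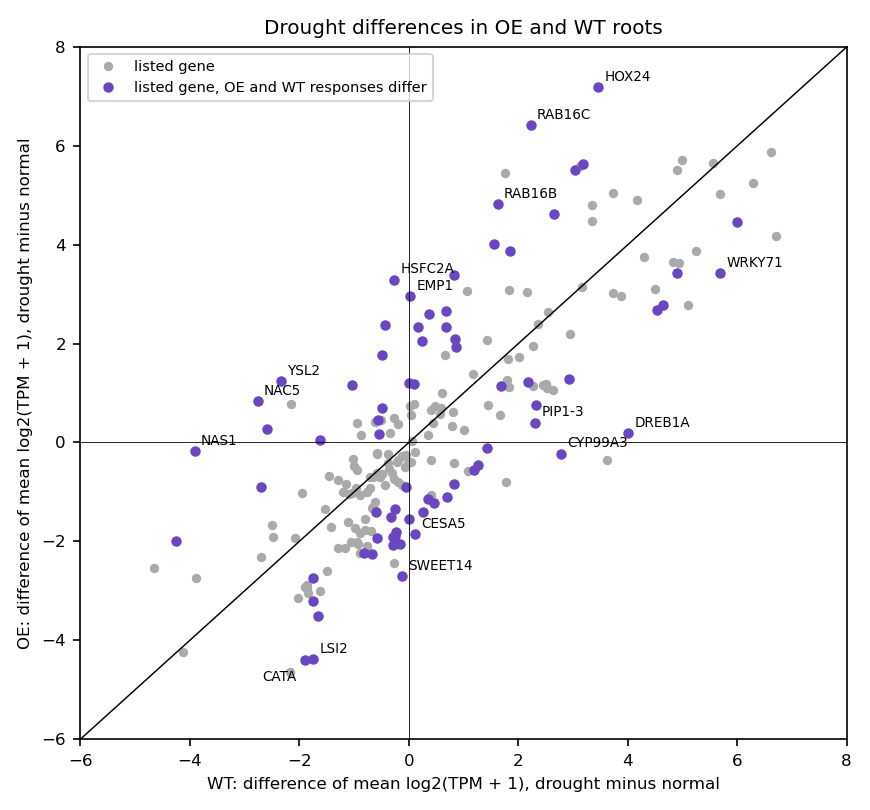
Drought differences of mean log2(TPM + 1) of listed genes in WT (horizontal) and OE (vertical) roots, with the line of equality. Purple points passed the interaction test, and the 16 with the largest interactions are labelled: HOX24, RAB16C, NAC5 and EMP1 lie above the line and DREB1A, CYP99A3, CESA5 and SWEET14 below it.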

How the data were processed

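Total RNA of roots was sequenced in 11 libraries (3 WT normal, 2 OE normal, 3 WT drought, 3 OE drought), while the 18 ATAC-seq samples were not analysed here. Per the submitters' processing notes the tools included StringTie 1.3.6, STAR (1.5.2 as printed), SAMtools 1.9, fastp, FastQC 0.11.8 and DESeq2, with no role given. Build, annotation and strandedness: not given in the sources used here. Therefore antisense partners and near-identical copies (RAB16, NAS, ADH, CAB, TIFY11, small heat shock and PIP genes) are uncertain. TPM values deposited by the authors were tested. The deposited FPKM values served as an alternative, and the ratio of deposited coverage to FPKM gave an implied depth per library.

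Loci with at least 1 TPM in at least 2 of the 5 OE libraries were tested on log2(TPM + 1), which understates the change of low genes, with limma 3.58.1 in R 4.3.3 (group means, mean-variance trend, two-sided, Benjamini-Hochberg adjustment, threshold 0.05). The drought response used the 5 OE libraries only, and the WT response and the interaction used all 11. In simulated data with the measured spread, 100 loci were changed by log2 1 and 100 by log2 2. The OE fit recovered 19% and 62% of them with 5 false calls among 22762 unchanged loci, and the interaction 23% and 70% with 26. Far larger shares of loci were called in the measured data (69.3% in OE and 16.3% for the interaction), so these recovery rates do not carry over to it. No pairing by replicate number was seen (correlation of deviations -0.026 and -0.004). The deviations of the 2 normal libraries mirror each other, so this check cannot exclude pairing.

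The tables name loci by identifier only. Of 334 loci written from knowledge of the families, 227 were given a name because their symbol was found in the reference gene table of assembly ASM3414082v1 on the same chromosome, at most 5 Mb away and at 0.9 to 1.1 times the length. Of these 217 were tested, 81 higher, 84 lower and 52 not called, and 10 did not pass the filter. At its edge, NRT2.3 and HSP16.9B entered with second-highest values of 1.10 and 1.09 TPM and HSP101 and HSP16.9C did not, with 0.900 and 0.833 TPM. Members and lists were chosen with earlier results of these data known. Named genes were NMCP1 and partners, the 15 largest rises and 15 largest falls with no overlap and 5 TPM or more in the higher group, the 4 or fewer members of each list with the lowest adjusted p, the 8 largest interactions each way and at most 2 unnamed loci each way. Other members given were chosen after their values were seen. Tables and plots were made with pandas 2.3.3, matplotlib 3.10.9 and numpy 2.4.6 in Python 3.11.15.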

Additional observations from a re-analysis of the deposited data

Results flagged for a closer look

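The 16 genes with the largest called interactions were set apart because the OE and WT drought responses differed by the interaction test in limma (adjusted p from 3.0e-05 to 0.0498). On the log2 scale the OE response exceeded that of WT by 4.18 for RAB16C, 3.74 for HOX24, 3.74 for NAS1, 3.6 for NAC5, 3.58 for YSL2, 3.56 for HSFC2A, 3.19 for RAB16B and 2.94 for EMP1. HOX24, RAB16B, YSL2 and EMP1 were among those that passed the filter only through the OE drought libraries. The OE response minus that of WT was -3.82 for DREB1A, -3.0 for CYP99A3, -2.63 for LSI2, -2.57 for SWEET14, -2.5 for CATA, -2.27 for WRKY71, -1.96 for CESA5 and -1.91 for PIP1-3. NAS1 was at 45.3, 30.1 and 44.3 TPM in WT normal and 0.168, 1.14 and 6.6 TPM in WT drought libraries, and in OE at 2.15 and 2.46 TPM before and 4.92, 0.488 and 1.84 TPM after drought, so the WT normal libraries stood apart. WRKY71 went from 7.83, 16.6 and 8.81 to 794, 783 and 338 TPM in WT and from 24.4 and 34.4 to 415, 311 and 257 TPM in OE. RAB16C, RAB16B, HSFC2A, NAS1, LSI2, CATA and WRKY71 lost the call in at least 1 fit that left out a library, with highest adjusted p-values of 0.072, 0.13, 0.06, 0.11, 0.094, 0.17 and 0.11, and the other 9 kept it in all 11. Leaving out OE normal replicate 1 ended the call of all 7, and leaving out OE normal replicate 2 that of each except HSFC2A. Median-ratio scaling ended the call of CATA and WRKY71 (adjusted p = 0.1 and 0.06), as did a spread estimated per group (0.063 and 0.074). A pseudocount of 0.1 ended that of NAS1, RAB16B and CATA (adjusted p = 0.078, 0.093 and 0.051), and the replicate block that of NAS1 and CATA (0.051 for both).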

How the results depend on the processing

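For the drought response of OE, these settings kept the number of called loci within 1.5 times 15913: 16450 with all 11 libraries in the fit, 17188 with the replicate block (no pairing of the numbers was found, and 134 of 135 named genes kept their direction and call), 15920 on FPKM, 12509 of 17689 with at least 5 TPM, 16988 of 32723 with no filter, 15810 without the trend, 15594 and 16106 with pseudocounts of 0.1 and 5, and 17287 with the spread estimated per group. Median-ratio scaling gave 7055 higher and 6444 lower. Leaving out a library gave 9586 (without OE normal replicate 1) to 17573 (without OE drought replicate 3) called, 2975 to 5048 higher and 6537 to 12525 lower, and without either OE normal library 23 of 135 named genes lost their call. With 1 normal library left, its spread is assumed to equal that of the drought libraries. With median-ratio scaling the sign turned for SWI3C1 (0.20), PYL11 (0.39), NAC3 (0.22), SLR1 (0.14), NAS1 (0.24) and CYP99A3 (0.28), and NAS1 ran from -0.68 to 0.31 when a library was left out (0.31 without OE drought replicate 2). For the interaction, median-ratio scaling gave 1242 more negative, the replicate block 2682 called, the spread per group 4825, and leaving out a library 1162 to 7328 called, 430 to 2537 more positive and 726 to 4791 more negative. The highest count, 7328, came without WT drought replicate 3. That library correlated at 0.924 and 0.942 with WT drought replicates 1 and 2, which correlated at 0.982 with each other. Apart from the directions under median-ratio scaling, which follow from its construction, the cause of these shifts was not tested. Depth limits low loci: 1 TPM is the floor set, and no counts were used.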

Other observations

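Hormone genes outside the ABA and jasmonate routes moved both ways in OE roots. ACO1, the last enzyme of ethylene synthesis, rose from 0.586 and 1.47 to 53.7, 66.2 and 44.3 TPM, by 4.8 (SE 0.27, adjusted p = 0.00011), while the receptor ETR2 fell from 39.9 and 41.9 to 15.8, 12.7 and 16.6 TPM, a difference of -1.4 (SE 0.16, adjusted p = 0.00093). CKX5, a cytokinin oxidase that breaks the hormone down, rose from 2.7 and 3.08 to 62.9, 38.5 and 43.2 TPM, by 3.63 (SE 0.24, adjusted p = 0.00017), and RR2, a type-A response regulator of cytokinin, fell from 53.9 and 46.2 to 13.6, 16.3 and 17.1 TPM, a difference of -1.62 (SE 0.16, adjusted p = 0.00057). IAA9, an auxin response repressor, rose from 9.88 and 8.99 to 103, 159.8 and 77.3 TPM, by 3.39 (SE 0.30, adjusted p = 0.0004), and PIN1B, an auxin exporter, fell from 64.6 and 69.7 to 13.2, 10.3 and 22.2 TPM, a difference of -2.13 (SE 0.31, adjusted p = 0.0019). The shares over all loci tested were 19.8% higher and 49.5% lower, and those of the auxin genes lay near them. In counts, 2 of 5 ethylene genes were higher and 2 lower, 2 of 8 cytokinin genes higher and 3 lower, and 2 of 8 auxin genes higher and 4 lower. With median-ratio scaling these became 2 and 2, 2 and 1, and 3 and 2, and without either OE normal library 1 and 2, 1 and 1, and 1 and 2. Of 3 gibberellin genes 2 were lower on TPM, 1 without OE normal replicate 1, and none without OE normal replicate 2 or with median-ratio scaling.

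Solute and clock genes were also split. TPP1, trehalose-6-phosphate phosphatase, rose from 69.7 and 65.9 to 686, 438 and 504 TPM, by 2.96 (SE 0.21, adjusted p = 0.00022), and RINO1, inositol phosphate synthase, by 1.18, while the betaine aldehyde dehydrogenase BADH2 fell from 276 and 267 to 79.4, 119 and 133 TPM, a difference of -1.32 (SE 0.24, adjusted p = 0.004). P5CS1, of proline synthesis, was not called (87.6 and 76.6 against 61.2, 59.5 and 70.8 TPM). Among clock genes PRR1 fell from 57 and 55 to 8.03, 7.43 and 7.16 TPM, a difference of -2.74 (SE 0.14, adjusted p = 8.7e-05), GI fell by 1.51, and PRR73 rose by 1.39. Against 19.8% higher and 49.5% lower over all loci, 2 of 6 solute genes were higher and 2 lower, and 1 of 5 clock genes was higher and 2 lower. With median-ratio scaling these became 3 and 1, and 2 and 2. Without OE normal replicate 1 only 1 solute gene was lower. Without OE drought replicate 3 there were 3 solute genes higher and 3 lower, and 3 clock genes higher, and without OE drought replicate 1 there were 2 clock genes higher.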
